A study of Rattus norvegicus with 16 samples.

Results

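Interferon-stimulated genes are the antiviral and antigen-presenting genes that cells switch on when they sense interferon, and they were followed here in rat pituitary cells exposed to an inflammatory ligand. Members were taken from a list of 53 gene symbols by role in the interferon response, in a rule that uses no measured value, though the list was drawn up with earlier results of these data known. The array annotation gave 37 of the 53 a probe set carrying only that symbol, out of 14557 genes measured in this way. The other 16 (Ddx58, Irf1, Ifit1, Herc6, Parp9, Dtx3l, Oas1a, Oas3, Eif2ak2, Mx2, Gbp2, Bst2, Samhd1, Parp14, Ifi44l and Xaf1) were not analysed here.

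The study treated cultured corticotropes, the pituitary cells that make the precursor of adrenocorticotropic hormone, with 1 of 3 ligands and measured their RNA on Affymetrix arrays. Groups of 4 arrays each were control cells, cells treated with corticotropin-releasing hormone (CRH), cells treated with interleukin-6 (IL-6) and cells treated with eNampt, the form of nicotinamide phosphoribosyltransferase found outside cells. All groups came from the pituitary of Wistar rats aged 21 days, dissociated with collagenase and grown before the corticotropes were pulled out on beads with an antibody to CRHR1 (the design text names CRH instead). The medium held 10% fetal bovine serum and 0.05 µg/l FGF, the ligands acted for 24 h, and 5 ng of total RNA went into each amplification. No time is given for the controls, and neither the ligand doses nor how the eNampt was prepared is stated in the sources used here. Whether arrays within a group stand for different animals or cultures is not stated either, so a p-value here reflects spread between samples that may be purely technical.

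Type I interferons act through the Ifnar receptor and the kinases Jak1 and Tyk2, which activate Stat2. Stat2 and Irf9 are parts of a complex that binds the interferon-stimulated response element (ISRE) of target promoters, whereas interferon-gamma acts on gamma-activated sites (GAS). Interferon itself is made downstream of sensors such as Tlr4, for which eNampt has been described as a ligand, through Irf3. The same sensors also activate NF-kB, the factor behind many chemokine and acute-phase genes. The comparisons therefore ask whether the response to eNampt had an interferon arm beside its NF-kB arm.

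Promoter windows show how far the listed genes carry these elements in the rat genome. The windows reach from 250 bases before to 50 bases after the annotated gene start and are RefSeq sequences of build GRCr8. They were found for 39 of the 53 listed genes and for 27457 genes in all. An ISRE core, spelled GAAANNGAAA and searched on both strands, occurred in 26 of the 39 (66.7%), against 4.12% of all genes. A GAS core, TTCNNNGAA, occurred in 10 of the 39 (25.6%), against 9.39%. An NF-kB core, GGGANNTTCC, occurred in 4 of the 39 (10.3%), against 1.38%. Among the 26 measured members with a window the ISRE, GAS and NF-kB shares were 65.4%, 15.4% and 15.4%. The ISRE and GAS cores overlapped in 1 member and the ISRE and NF-kB cores in 0. Among 21 measured NF-kB target genes with a window, the ISRE core occurred in 1 (4.76%), the GAS core in 4 (19.0%) and the NF-kB core in 8 (38.1%). A match describes letters in a window and not a bound site.

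The windows below belong to genes on which the comparisons turn, with the core in capitals and positions counted from the gene start. Ifit3 (chr1:241527267-241527306, plus strand, positions -59 to -20), Irf7 (chr1:205800068-205800107, minus strand, -84 to -45), Ifih1 (chr3:67684003-67684042, minus strand, -74 to -35) and Ifi44 (chr2:243303842-243303881, minus strand, -41 to -2) are shown around 1 ISRE core each, and Ifi44 held another at 27 to 36. Trim21 (chr1:166399372-166399404, minus strand, -33 to -1) shows a pair of overlapping ISRE cores. Irf9 (chr15:33065722-33065760, plus strand, -114 to -76) shows a GAS core, with no ISRE core in its window.
Ifit3: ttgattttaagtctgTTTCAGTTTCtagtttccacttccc
Irf7: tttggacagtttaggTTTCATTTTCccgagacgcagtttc
Ifih1: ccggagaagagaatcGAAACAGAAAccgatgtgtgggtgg
Ifi44: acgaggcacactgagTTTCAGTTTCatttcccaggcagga
Trim21: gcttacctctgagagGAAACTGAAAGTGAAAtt
Irf9: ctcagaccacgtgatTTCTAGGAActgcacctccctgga

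An ISRE core and an NF-kB core stood together in 4 members, Gbp5, B2m, Tap1 and Ifitm3. Of these, B2m (chr3:129549165-129549217, plus strand, -165 to -113) and Gbp5 (chr2:233910890-233910967, plus strand, -109 to -32) are shown as examples of promoters holding both elements. Nfkbia (chr6:78597079-78597118, minus strand, -46 to -7), the gene of the NF-kB inhibitor, is shown for comparison with the NF-kB core alone.
B2m: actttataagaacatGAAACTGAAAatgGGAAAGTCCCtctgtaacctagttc
Gbp5: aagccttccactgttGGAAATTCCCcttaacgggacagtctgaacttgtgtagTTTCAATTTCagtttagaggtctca
Nfkbia: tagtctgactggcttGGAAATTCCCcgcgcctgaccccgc

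Every value that follows is a log2 expression level or a difference of log2 levels. The bright end of the signal lay lower on control arrays 3 and 4, with 90th percentiles over all probe sets of 4.58 and 4.43 against 5.07 to 5.51 on the other 14. Bright genes tended to lie higher after every ligand: the median difference from control over the 3261 genes with a mean level above 4 was 0.43 for CRH, 0.43 for IL-6 and 0.52 for eNampt, against 0.10, 0.086 and 0.064 over all genes. Of the corticotrope markers, Pomc averaged 7.73 ± 0.364 (SD, n = 4) in control cells. The probe sets of the corticotrope factors Tbx19 and Neurod1 averaged 1.54 and 1.35 over the 16 arrays, below the median gene level of 2.25, which does not show a low transcript since probe sets differ in response. The probe set of Prl, the prolactin gene of lactotropes, averaged 10.8. Of the other hormone genes, Cga averaged 7.21 and Gh1 5.12 in control cells, while Lhb, Fshb and Tshb averaged 2.53, 2.20 and 1.17. The share of other pituitary cells in these cultures was not tested. Crhr1, Pcsk1 and Avpr1b were not analysed here. In bulk RNA of this kind, fewer cells of a type and less RNA per cell cannot be told apart.

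The members spanned the whole range of levels. Of the 37, 15 (40.5%) had a mean below the median gene level, which by definition divides all genes evenly. Among the 15 were Isg15, Mx1, Rsad2, Ifit3, Oas1b, Oas2, Usp18 and Rtp4. The mean levels of these 8 ran from 1.27 for Oas2 to 1.73 for Isg15. Another 11 members (29.7%) had a mean above 4, against 22.4% of all genes. These were Ifitm1, Ifitm2 and Ifitm3, membrane proteins that block virus entry, Ifi27, B2m, Trim25, Sp100, Samd9l, Ifit2, Isg20 and Adar. The brightest were Ifitm2 (7.66) and Ifi27 (7.54), at percentiles 98.5 and 98.3 of all genes.

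The array on which a member was brightest did not fall mainly in the eNampt group. Among the 37 members it was a CRH array for 15, an IL-6 array for 8, an eNampt array for 8 and a control array for 6. CRH array 4 alone was the brightest for 8 members. Of the 11 members above 4, the lowest array was control array 3 for 4 and control array 4 for 2.

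**Figure D1:**
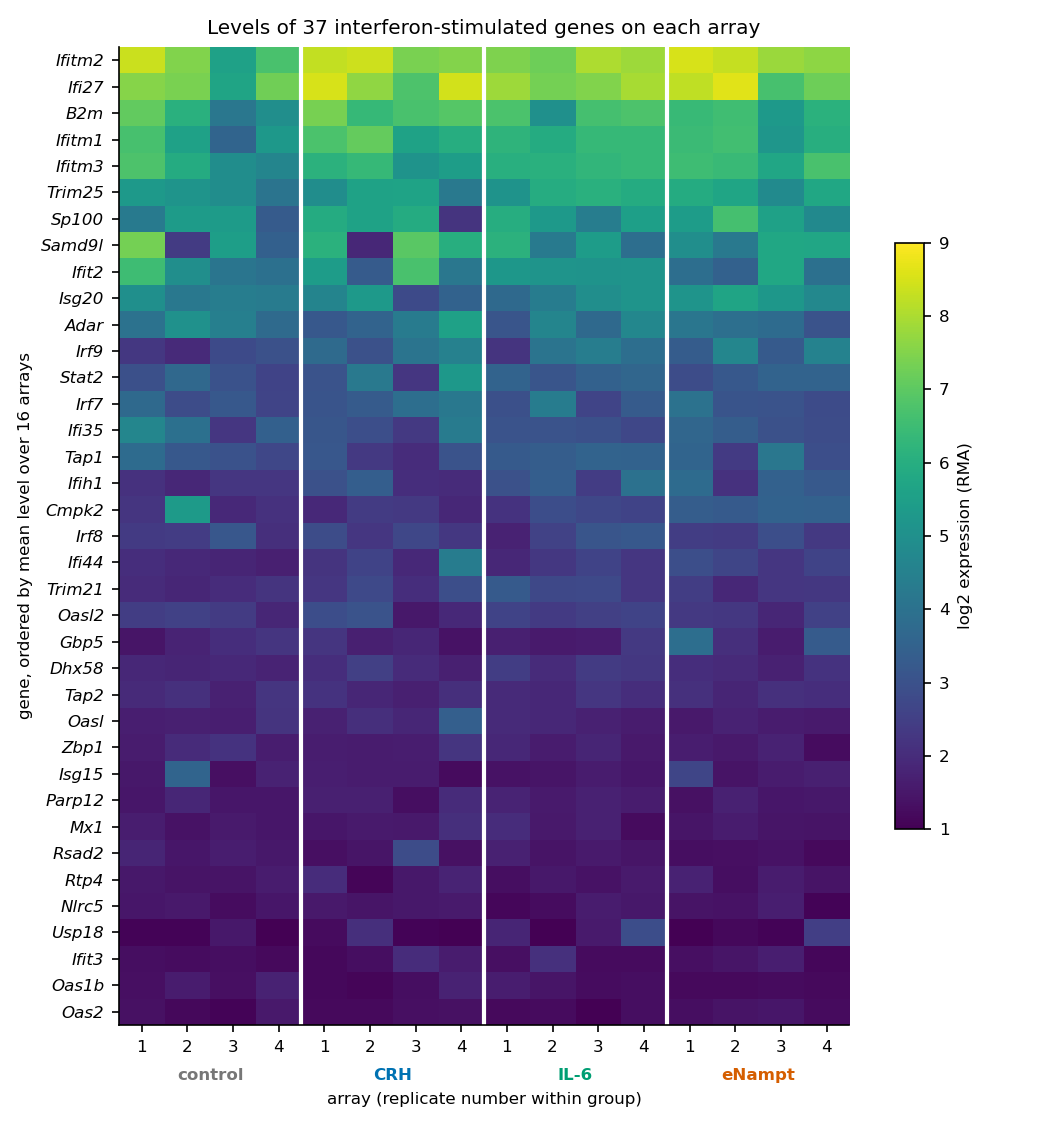
Log2 expression (colour) of the 37 measured interferon-stimulated genes (rows, ordered by mean level) on the 16 arrays (columns, replicate number within group). The 11 genes with a mean above 4 are the light rows at the top, control array 3 is the lowest array for 4 of them, and no block of rows is light in the eNampt columns only.

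After eNampt, no interferon-stimulated gene differed from control past the threshold. With limma, 0 of 37 members had a Benjamini-Hochberg adjusted p under 0.05, where 2 of 14557 genes did (0.0137%). The largest difference was that of Irf9, 1.45 ± 0.486 (SE), or 2.74-fold, with adjusted p = 0.511, the smallest among the members. At an unadjusted p under 0.05, 3 members were higher (Irf9, Ifih1 and Ifitm2) and 0 lower, against 6.17% of all genes higher and 1.38% lower. By sign, 25 members lay above 0 and 12 below, a share of 67.6% against 58.3% of all genes, and the median member difference was 0.13. Groups did not overlap for 2 members that lay higher, Irf9 and Ifi44, and 2 that lay lower, Oas1b and Rsad2, against 2.81% and 1.33% of all genes.

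The transcription factors of the pathway gave 1 member apart from the rest. Irf9, the DNA-binding partner of Stat2, read 2.31, 1.94, 2.80 and 2.97 on control arrays 1 to 4, 3.76, 3.00, 4.08 and 4.53 with CRH, 2.22, 4.08, 4.40 and 3.90 after IL-6, and 3.34, 4.68, 3.26 and 4.55 after eNampt. No control array reached any eNampt or CRH array, and 3 of the 4 IL-6 arrays did so as well. Without control arrays 3 and 4 the eNampt difference of Irf9 was 1.83 ± 0.612 (adjusted p = 0.788).

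Stat2, which joins Irf9 in the same complex, read 2.96, 3.71, 3.02 and 2.62 in control, 3.06, 4.22, 2.25 and 5.28 after CRH, 3.55, 3.11, 3.49 and 3.63 after IL-6, and 2.86, 3.20, 3.54 and 3.54 after eNampt. The eNampt arrays lay within the control range, and the difference was 0.21 (95% interval -0.82 to 1.24). Irf7, which amplifies interferon production, read 3.73, 2.87, 3.19 and 2.65 in control, 3.07, 3.30, 3.90 and 4.20 after CRH, 2.94, 4.35, 2.63 and 3.30 after IL-6, and 4.02, 3.07, 3.03 and 2.83 after eNampt. Its groups overlapped throughout, with a difference of 0.13 (-0.70 to 0.95) after eNampt. Irf8, a factor of myeloid cells, differed by 0.017 and Nlrc5, the activator of MHC class I genes, by -0.059.

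Among the sensors of viral nucleic acid, Ifih1 (MDA5) stood highest. It read 2.13, 1.89, 2.27 and 2.27 in control, 3.00, 3.39, 2.06 and 1.97 after CRH, 2.98, 3.39, 2.43 and 3.97 after IL-6, and 3.78, 2.14, 3.50 and 3.22 after eNampt. On eNampt array 2 it lay within the control range, and on the other 3 above it. The difference was 1.02 ± 0.403 (adjusted p = 0.611). Zbp1, a sensor of Z-form nucleic acid, read 1.61, 2.00, 2.17 and 1.65 in control, 1.63, 1.61, 1.64 and 2.23 after CRH, 1.89, 1.60, 1.84 and 1.54 after IL-6, and 1.63, 1.55, 1.76 and 1.28 after eNampt. These levels were all below the median gene level, with a difference of -0.30 (-0.69 to 0.089) and overlapping groups. Dhx58 (LGP2), a regulator of RNA sensing, differed by 0.11.

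The most used reporters of type I interferon lay beside their controls. Isg15, the ubiquitin-like protein conjugated to targets in infected cells, read 1.51, 3.56, 1.31 and 1.76 in control, 1.68, 1.62, 1.60 and 1.22 after CRH, 1.40, 1.44, 1.61 and 1.49 after IL-6, and 2.67, 1.43, 1.61 and 1.70 after eNampt. Control array 2 was the highest of all 16 and eNampt array 1 the next, and the difference was -0.18 (-1.04 to 0.67). Ifit3, whose ISRE core is shown above, read 1.29, 1.26, 1.29 and 1.20 in control, 1.19, 1.29, 2.01 and 1.60 after CRH, 1.33, 2.11, 1.25 and 1.24 after IL-6, and 1.33, 1.44, 1.67 and 1.14 after eNampt. None of these levels reached the median gene level, and the difference was 0.14 (-0.32 to 0.60).

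The ubiquitin ligase Trim21 read 1.99, 1.87, 2.01 and 2.20 in control, 2.27, 2.78, 2.05 and 2.91 after CRH, 3.25, 2.73, 2.78 and 2.27 after IL-6, and 2.47, 1.90, 2.27 and 2.30 after eNampt. The IL-6 arrays lay above all control arrays, while eNampt array 2 lay among them, and the eNampt difference was 0.22 (-0.27 to 0.70). Trim25, the ligase that activates RIG-I, differed by 0.69 ± 0.365, Usp18, which removes Isg15, by 0.29 ± 0.411 and Ifit2 by -0.61 ± 0.701. Ifit2 lies in the same gene family as Ifit3 and was bright, yet its sign was the opposite one, with neither past the threshold.

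Among the RNA-acting enzymes, 2 lay above control after eNampt and 4 below. The 2'-5' oligoadenylate synthetase gene Oas1b read 1.34, 1.60, 1.32 and 1.76 in control, 1.18, 1.10, 1.30 and 1.76 after CRH, 1.63, 1.44, 1.25 and 1.29 after IL-6, and 1.20, 1.21, 1.24 and 1.20 after eNampt. All 4 eNampt arrays lay below all 4 control arrays, by -0.29 ± 0.161 (adjusted p = 0.691). Oasl, a relative of the synthetases, read 1.69, 1.70, 1.66 and 2.19 in control, 1.72, 2.09, 1.85 and 3.42 after CRH, 1.96, 1.88, 1.75 and 1.62 after IL-6, and 1.54, 1.76, 1.60 and 1.57 after eNampt. CRH array 4 was far above the rest, and the eNampt difference was -0.19 (-0.81 to 0.42). Members of the Oas family resemble each other, so a probe set of 1 member may pick up RNA of another.

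Isg20, an exonuclease that degrades single-stranded RNA, read 4.99, 4.19, 4.38 and 4.34 in control, 4.61, 5.34, 2.80 and 3.51 after CRH, 3.73, 4.36, 4.96 and 5.13 after IL-6, and 5.15, 5.68, 5.23 and 4.75 after eNampt. On 3 of 4 eNampt arrays it exceeded every control array, with a difference of 0.73 ± 0.461 (adjusted p = 0.726). Adar, which edits adenosine to inosine in double-stranded RNA, read 4.03, 5.04, 4.46 and 3.76 in control, 3.20, 3.56, 4.34 and 5.57 after CRH, 3.11, 4.64, 3.74 and 4.71 after IL-6, and 4.14, 3.92, 3.79 and 3.04 after eNampt. Its groups overlapped, with a difference of -0.60 (-1.65 to 0.46).

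The antiviral GTPase Mx1 read 1.65, 1.39, 1.59 and 1.47 in control, 1.50, 1.58, 1.56 and 2.09 after CRH, 2.01, 1.56, 1.75 and 1.24 after IL-6, and 1.45, 1.61, 1.44 and 1.43 after eNampt. It was dim on every array, and its difference of -0.043 (-0.41 to 0.33) changed sign with the scaling, to 0.017 when quantile normalization was repeated and 0.014 when arrays were centred on their medians. Gbp5, a guanylate-binding protein that promotes inflammasome assembly and has both cores in the window above, read 1.46, 1.80, 2.05 and 2.24 in control, 2.22, 1.69, 1.85 and 1.38 after CRH, 1.70, 1.59, 1.61 and 2.33 after IL-6, and 3.88, 2.09, 1.61 and 3.28 after eNampt. Arrays 1 and 4 of the eNampt group were the highest of all 16, while arrays 2 and 3 lay within the control range. The difference was 0.83 ± 0.402 (adjusted p = 0.679).

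Among the membrane and nucleotide effectors, Ifitm2 read 8.37, 7.48, 5.58 and 6.71 in control, 8.26, 8.40, 7.40 and 7.53 after CRH, 7.44, 7.24, 8.02 and 7.82 after IL-6, and 8.53, 8.31, 7.80 and 7.63 after eNampt. Control arrays 3 and 4 were the lowest of all 16. The difference was 1.03 ± 0.463 (adjusted p = 0.653) and 0.14 ± 0.373 without those 2 arrays. Ifitm1 and Ifitm3 differed by 0.80 and 0.78, and by -0.045 and -0.0077 without them. The 3 Ifitm genes are close paralogs, and their probe sets may not separate them.

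Cmpk2, a mitochondrial nucleotide kinase, read 2.24, 5.34, 1.93 and 2.15 in control, 1.92, 2.40, 2.32 and 1.88 after CRH, 2.18, 2.88, 2.70 and 2.61 after IL-6, and 3.36, 3.26, 3.53 and 3.48 after eNampt. The eNampt arrays lay close together above every other array except control array 2, which was the highest of all. The difference was 0.49 ± 0.551 (adjusted p = 0.860). Without control array 2 it was 1.30 ± 0.190 and the member was then called (adjusted p = 0.0244), as were 14 genes in all. Without control arrays 3 and 4 it was -0.39 ± 0.583. Rsad2 (viperin), another antiviral enzyme of nucleotide metabolism, lay lower, with a difference of -0.31 (-0.88 to 0.26), with 1.20 to 1.40 on eNampt arrays and 1.50 to 1.82 on control arrays.

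Among the other induced genes, Ifi44 read 2.04, 1.93, 1.82 and 1.71 in control, 2.20, 2.62, 1.94 and 4.35 after CRH, 1.88, 2.29, 2.61 and 2.27 after IL-6, and 2.92, 2.67, 2.27 and 2.62 after eNampt. No eNampt array overlapped the controls, and the difference was 0.74 ± 0.389 (adjusted p = 0.684). Ifi35 read 4.67, 3.95, 2.27 and 3.45 in control, 3.15, 2.92, 2.34 and 4.32 after CRH, 3.05, 3.03, 2.97 and 2.70 after IL-6, and 3.64, 3.37, 2.98 and 2.85 after eNampt. Its control arrays spanned the ligand arrays, with a difference of -0.38 (-1.34 to 0.59).

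For class I antigen presentation, B2m, the light chain of MHC class I, read 7.06, 6.07, 4.16 and 4.94 in control, 7.35, 6.37, 6.71 and 6.89 after CRH, 6.72, 5.02, 6.63 and 6.77 after IL-6, and 6.40, 6.55, 5.31 and 6.11 after eNampt. Control arrays 3 and 4 were again the lowest, and the difference of 0.53 (-0.65 to 1.71) became -0.47 ± 0.512 without them. Tap1, a subunit of the peptide transporter, read 3.79, 3.22, 3.02 and 2.71 in control, 3.16, 2.33, 2.02 and 3.05 after CRH, 3.26, 3.36, 3.53 and 3.53 after IL-6, and 3.57, 2.36, 4.18 and 2.94 after eNampt. The eNampt arrays lay on both sides of the control range, with a difference of 0.078 (-0.69 to 0.85), and the other subunit, Tap2, differed by 0.021.

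**Figure D2:**
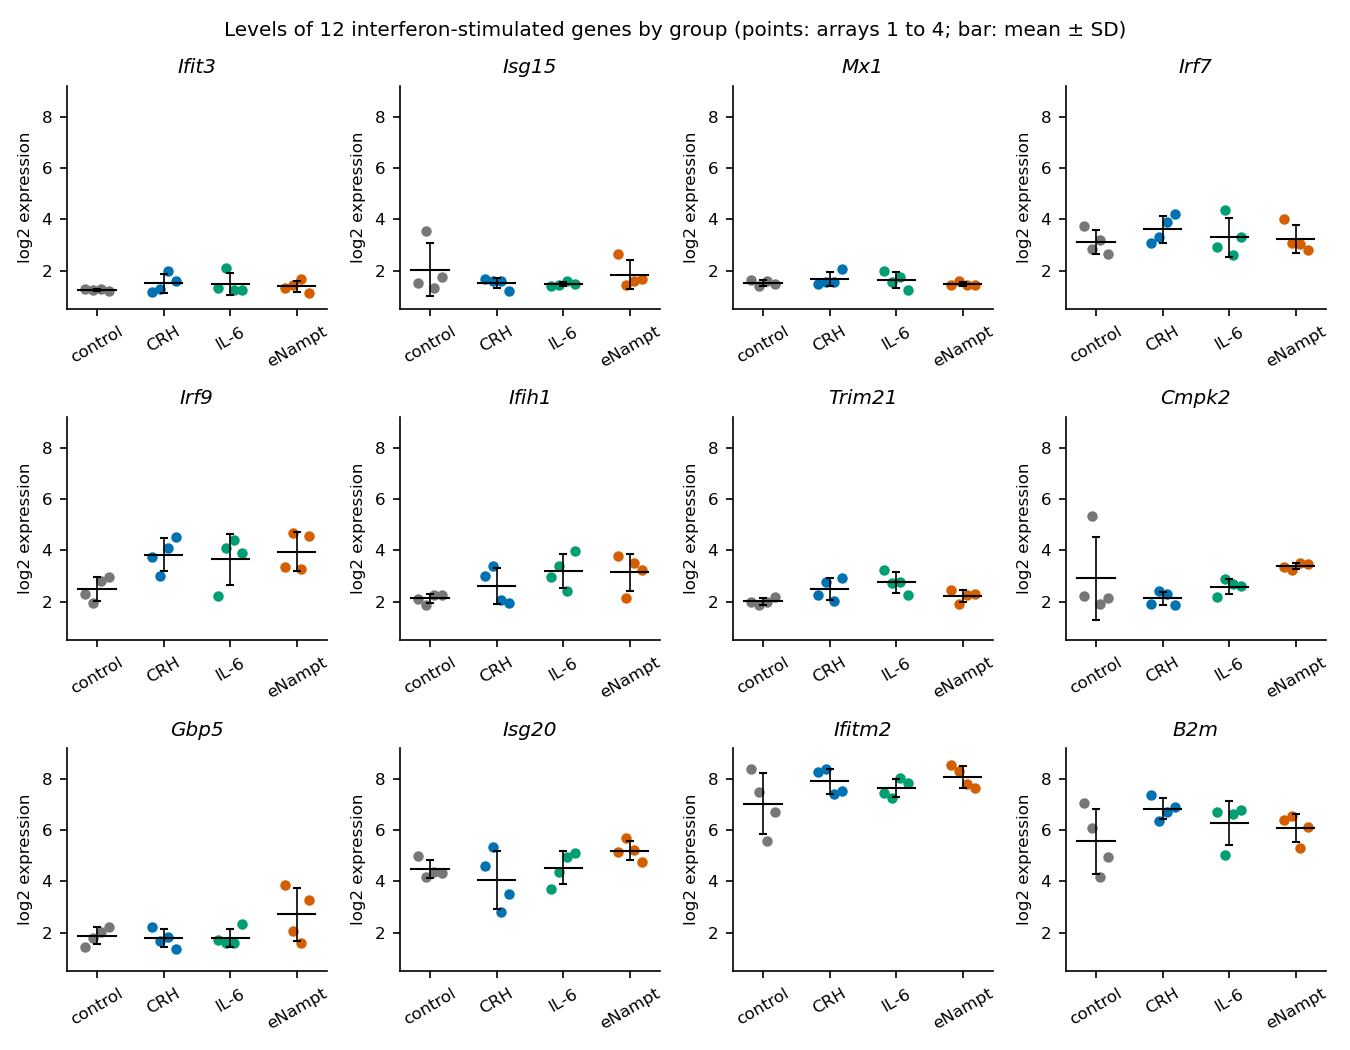
Log2 expression of 12 of the genes by group, with 1 point per array in the order of arrays 1 to 4 and bars for the mean ± SD (n = 4). The eNampt points of Ifit3, Isg15 and Mx1 lie at the low end of the scale beside the controls, those of Irf9 lie above all control points, and those of Cmpk2 lie above all but control array 2.

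The precision of these differences varied with brightness. For 21 of the 37 members the upper end of the 95% interval for eNampt against control lay under 1, that is under a doubling, but only 2 of the 11 members above 4 were among them. For dim probe sets a small array difference does not bound the change in RNA, since signal near the array's floor responds weakly. Without control arrays 3 and 4, the members' median difference was -0.0077 with 17 of 37 above 0, against a median of -0.035 over all genes. At an unadjusted p under 0.05, 2 members were then higher (Irf9 and Ifih1) and 1 lower (Ifi35), against 2.25% and 3.23% of all genes. The median of the 11 bright members was then 0.14 in place of 0.73, against 0.022 over all genes above 4.

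**Figure D3:**
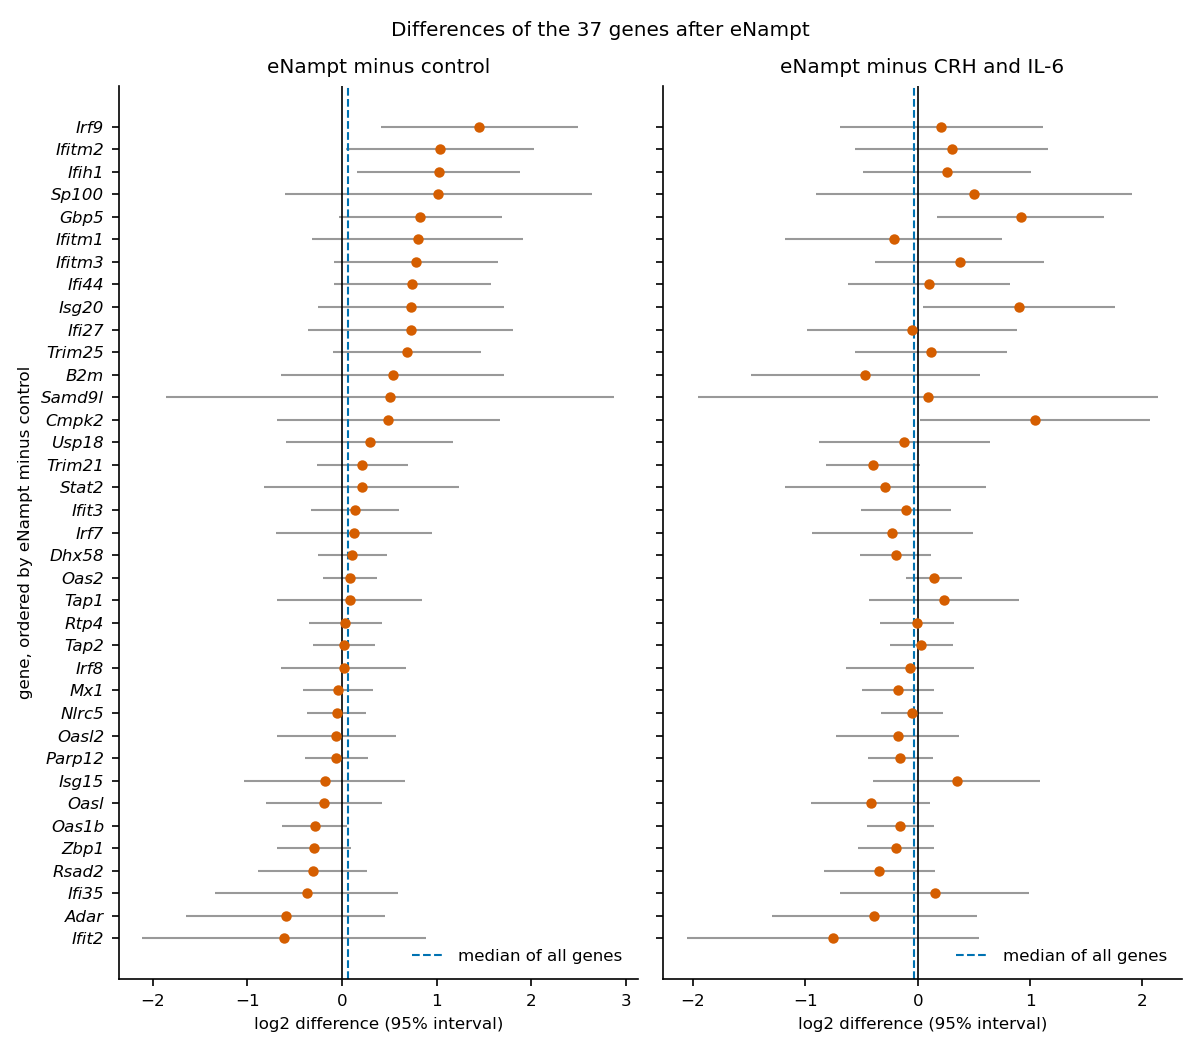
Log2 differences with 95% intervals for the 37 genes, eNampt minus control (left) and eNampt minus the mean of CRH and IL-6 (right), with the median of all genes as a dashed line. Irf9, Ifih1 and Ifitm2 have intervals above 0 on the left, and Gbp5, Isg20 and Cmpk2 on the right.

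Against the 8 CRH and IL-6 arrays, no interferon-stimulated gene differed past the threshold. The control arrays do not enter these differences. They do enter the SE and p, since the fit takes 1 spread per gene from all 16 arrays. With limma, 0 of 37 members were called where 4 of 14557 genes were (0.0275%), and the smallest adjusted p was 0.991. At an unadjusted p under 0.05, 3 members were higher, Gbp5, Isg20 and Cmpk2, and 0 lower, against 2.48% of all genes higher and 1.55% lower. By sign, 16 members lay above 0 and 21 below, or 43.2% above against 43.8% of all genes, and the median member difference was -0.053 against -0.034.

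The GTPase Gbp5 differed by 0.92 ± 0.348 (adjusted p = 0.991), with eNampt arrays 1 and 4 above all 8 other ligand arrays and arrays 2 and 3 among them. Isg20 differed by 0.90 ± 0.399, with its highest eNampt array above and the other 3 within the range of the other ligands. Cmpk2 differed by 1.04 ± 0.478, and here all 4 eNampt arrays lay above all 8 CRH and IL-6 arrays. It was the single member without overlap, against 0.268% of all genes, while 0 members lay lower without overlap, against 0.206%. The SE of Cmpk2 takes in control array 2, on which it read 5.34. Over the alternative settings its difference ran from 0.97 to 1.11, and its lowest adjusted p in limma was 0.0596. The members furthest below 0 by moderated t were Trim21 (-0.40 ± 0.196) and Oasl (-0.42 ± 0.248), each with overlapping groups. Irf9 differed by 0.21 (-0.69 to 1.11) and Ifih1 by 0.26 (-0.49 to 1.01). For Isg15 the difference was 0.35 (-0.39 to 1.08), for Ifit3 -0.10 (-0.50 to 0.30) and for Mx1 -0.17 (-0.49 to 0.14).

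IL-6, whose receptor signals mainly through Jak1 and Stat3, gave 5 members higher than control at an unadjusted p under 0.05, against 4.42% of all genes, and 0 lower, against 1.11%. These were Trim21, Ifih1, Trim25, Dhx58 and Irf9, that is both measured RNA helicase sensors among them. With limma 0 members were called, where 1 of 14557 genes was (0.00687%), and the smallest adjusted p was 0.793. Trim21 differed by 0.74 ± 0.227 (1.67-fold, adjusted p = 0.793), Ifih1 by 1.05 ± 0.403 and Dhx58 by 0.42 ± 0.170 (both adjusted p = 0.860). For these 3 members all IL-6 arrays lay above all control arrays, against 2.41% of all genes, and 0 members lay lower without overlap, against 0.756%. The lowest by moderated t were Isg15 (-0.55 ± 0.399, and -0.043 without control array 2) and Ifi35 (-0.65 ± 0.453, and -0.29 without control array 1). The median member difference was 0.21, with 25 members above 0 and 12 below, where 63.2% of all genes lay above. Without control arrays 3 and 4 the median was 0.011. There 3 members were higher and 2 lower (Isg15 and Ifi35) at an unadjusted p under 0.05, against 1.98% and 3.45% of all genes.

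CRH, which acts through a cAMP-coupled receptor, gave 3 members higher at an unadjusted p under 0.05, Irf9, Ifi44 and B2m, against 5.56% of all genes, and 0 lower, against 0.763%. With limma 0 members and 0 of 14557 genes were called (0%), and the smallest adjusted p of a member was 0.730. Irf9 differed by 1.34 ± 0.486 without overlap, the single such member, against 2.05% of all genes, and 0 members lay lower without overlap, against 0.453%. Ifi44 differed by 0.90 ± 0.389 and by 0.38 without CRH array 4, on which it read 4.35. B2m differed by 1.27 ± 0.551 and by 0.27 ± 0.512 without control arrays 3 and 4. The lowest by moderated t were Tap1 (-0.55 ± 0.359) and Cmpk2 (-0.78 ± 0.551), the latter 0.025 without control array 2. The median member difference was 0.15, with 26 members above 0 and 11 below, against 65.7% of all genes above. Without control arrays 3 and 4, 1 member was higher (Irf9) and 3 were lower (Cmpk2, Ifi35 and Isg15) at an unadjusted p under 0.05, against 1.77% and 3.28% of all genes.

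The 3 comparisons with control share the same 4 control arrays, so their member values are set side by side only. Irf9 lay above control by 1.34 with CRH, 1.15 with IL-6 and 1.45 with eNampt, Ifih1 by 0.47, 1.05 and 1.02, and Ifitm2 by 0.86, 0.60 and 1.03. For the classical reporters the same 3 differences were -0.51, -0.55 and -0.18 for Isg15, 0.26, 0.22 and 0.14 for Ifit3, and 0.15, 0.11 and -0.043 for Mx1.

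Other genes of the pathway were read from lists chosen with earlier results of these data known, and none of their members was called in any comparison. No interferon gene lay clearly above control after eNampt: of 7 measured ligands 1 lay above 0 and 6 below, with a median difference of -0.10. Of all genes with a mean of 4 or less, the class of these ligands, 49.3% lay above. Ifnb1 (interferon-beta) differed by -0.14 (-0.51 to 0.23), Ifnk by -0.20 and Ifne by -0.16, all at levels below the median gene. The list's mean level on each array was 1.71 to 2.26 in control and 1.71 to 2.03 after eNampt.

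All 5 measured interferon receptor genes lay above control after eNampt, with a median difference of 0.93. Among all genes with a mean above 4, the class of Ifnar1, Ifngr1 and Il10rb, 89.5% lay above control with a median of 0.52. Among genes with a mean of 4 or less, the class of Ifngr2 and Ifnlr1, 49.3% lay above. Ifngr1, a chain of the interferon-gamma receptor, read 4.07, 5.18, 3.95 and 3.60 in control and 5.59, 5.42, 5.57 and 4.75 after eNampt. On 3 of 4 eNampt arrays it exceeded every control array, and the difference was 1.13 ± 0.386 (adjusted p = 0.524). Ifnar1, a chain of the type I receptor, differed by 1.12 ± 0.803 and Ifnlr1 of the lambda receptor by 0.33 ± 0.186. Only Ifnlr1 lay higher without overlap, against 2.81% of all genes, and 0 lay lower, against 1.33%. Control arrays 3 and 4 held the lowest Ifngr1 values of all 16 arrays, and the part of these arrays in the receptor differences was not tested. For eNampt against CRH and IL-6, where the differences leave the controls out, all 5 receptor genes lay above 0, with a median of 0.49. The share above 0 was 43.8% of all genes and 62.5% of those above 4. In that comparison 0 receptor genes had an unadjusted p under 0.05, against 2.48% of all genes higher and 1.55% lower. Against control, 1 of the 5 was higher (Ifngr1) and 0 lower, where 6.17% and 1.38% of all genes were.

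The signalling genes between receptor and target showed no common direction. Of 6 measured JAK-STAT genes 3 lay above and 3 below control after eNampt, where 58.3% of all genes lay above. Ptpn6, a phosphatase that dampens the pathway, differed by -1.15 ± 0.552, and by -0.41 without control array 2, on which it read 6.25. Jak2 differed by 0.22, and by -0.0033 without eNampt array 4. Of 13 adaptors and kinases upstream of interferon 5 lay above and 8 below, with Traf3 at 0.71 (0.42 without control array 4), Tlr3 at -0.76 (-0.20 without control array 2), Irf3 at 0.31 (-0.56 to 1.18) and Tlr4 at -0.12 (-0.77 to 0.54).

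Of 16 interferon-gamma response genes outside the list of members, 9 lay above and 7 below control after eNampt, where 58.3% of all genes lay above. Cd74, the invariant chain of MHC class II, read 5.29, 3.14, 4.52 and 4.49 in control and 7.23, 5.20, 6.19 and 6.68 after eNampt, a difference of 1.97 ± 0.666 (adjusted p = 0.516). The immunoproteasome subunit Psmb9 differed by 1.12 ± 0.424. At an unadjusted p under 0.05, 3 of the 16 were higher and 1 lower, against 6.17% and 1.38% of all genes. The 3 were Cd74, Psmb9 and Psmb10 (0.90), and the 1 lower was Ifi47 (-0.49). Psmb10 and Ifi47 were named once their values had been seen. The same count was 1 higher and 0 lower for CRH, and 0 each way for IL-6. Psmb10 averaged 4.10 in control cells, 5.04 with CRH and 5.00 with eNampt. Cxcl10, the chemokine most used as an interferon marker, differed by -0.11 (-0.60 to 0.39).

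Cd74 is also a marker of antigen-presenting leukocytes. Of 11 measured leukocyte markers 7 lay above and 4 below control after eNampt, where 58.3% of all genes lay above, and 0 were called. Their mean level ran from 2.03 to 2.78 on control arrays, 2.02 to 2.55 after CRH, 2.09 to 2.28 after IL-6 and 2.30 to 2.57 after eNampt. Ptprc, the pan-leukocyte CD45, averaged 1.48 over the 16 arrays, below the median gene level, and differed by -0.11 (-0.44 to 0.21). At an unadjusted p under 0.05, 2 of the 11 were higher and 0 lower, against 6.17% and 1.38% of all genes. The 2 were Cd74 and the macrophage gene Cd68. Cd68 read 1.59, 1.44, 1.87 and 1.37 in control and 2.38, 3.11, 1.59 and 1.88 after eNampt (difference 0.67, and 0.38 without eNampt array 2). Fibroblast and mural markers lay above control in 7 of 7 cases, with mean levels of 3.61 to 4.91 in control and 4.60 to 5.70 after eNampt. Of genes with a mean above 4, the class of Col1a1, Col1a2, Col3a1, Dcn and Pdgfrb, 89.5% lay above control. The same markers lay above control in 5 of 7 cases after CRH and 5 of 7 after IL-6. For eNampt against CRH and IL-6, 5 of 7 lay above 0, where 43.8% of all genes did. The part of other cells in the members' values was not tested.

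NF-kB targets, measured on the same arrays, were set beside the interferon list. Of 27 measured targets, a list also chosen with results known, 25 lay above control after eNampt and 2 below, where 58.3% of all genes lay above. At an unadjusted p under 0.05, 18 were higher and 0 lower, against 6.17% and 1.38% of all genes. The median difference was 1.05 against 0.13 for the interferon-stimulated genes, and the lists were not matched for brightness. The 11 interferon-stimulated genes with a mean above 4 had a median of 0.73. All genes above 4 had a median of 0.52, with 89.5% above control. Complement C3 differed by 3.35 ± 0.395 (adjusted p = 0.00433) and was the 1 target called, though not without control arrays 3 and 4 (3.31 ± 0.520, adjusted p = 0.0777). Against CRH and IL-6 the median was 1.06 for the NF-kB targets, -0.053 for the interferon-stimulated genes and 0.091 for the 11 of these above 4. With limma, C3 and Csf2, the gene of GM-CSF, were called in this comparison (adjusted p = 0.00263 and 0.0309). The Csf2 call was lost when any of several single arrays was left out, with an adjusted p of 0.153 without eNampt array 2. After CRH and IL-6 the NF-kB medians were 0.071 and 0.20, against 0.15 and 0.21 for the interferon-stimulated genes. Without control arrays 3 and 4 the eNampt medians were 0.72 for the NF-kB targets and -0.0077 for the interferon-stimulated genes. At an unadjusted p under 0.05, 10 NF-kB targets were then higher and 1 lower, against 2.25% and 3.23% of all genes. The 1 lower was Nfkb2 (-2.39 ± 0.695), which in that fit differed by -2.61 after CRH and -2.51 after IL-6. The difference between the lists itself was not tested.

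**Figure D4:**
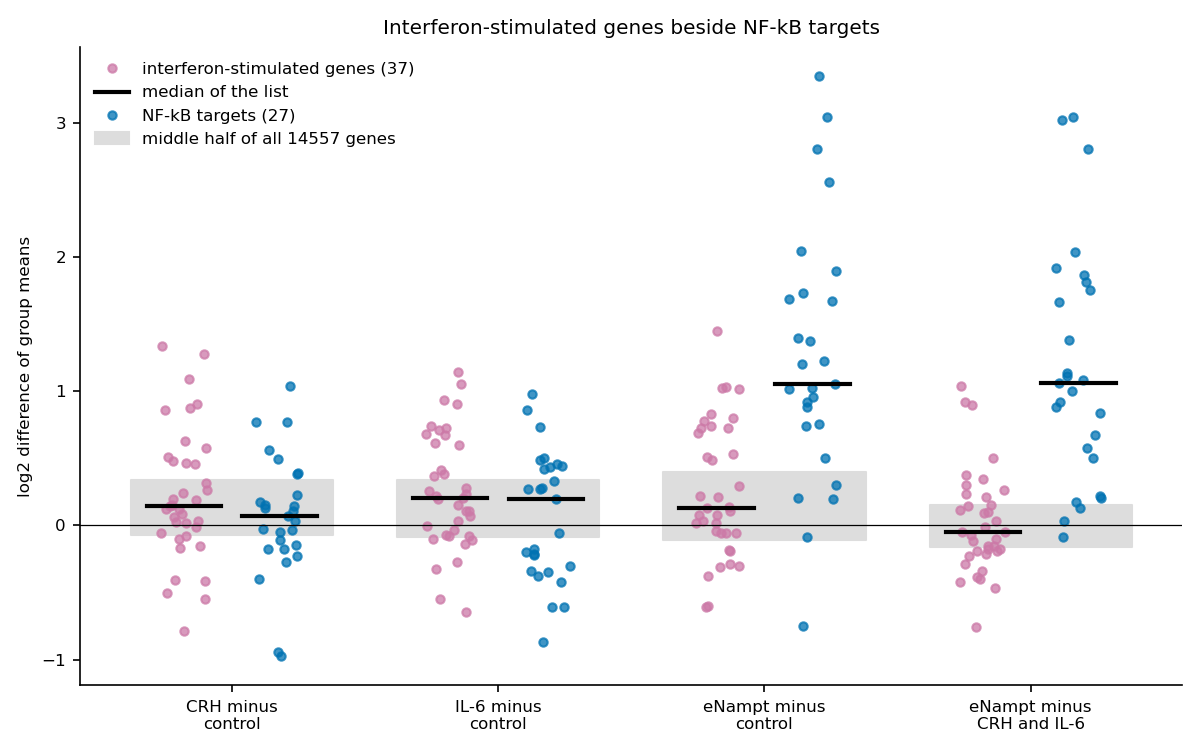
Log2 differences of the 37 interferon-stimulated genes and 27 NF-kB targets in 4 comparisons (1 point per gene), with the median of each list as a bar and the span from the lower to the upper quartile of all 14557 genes in grey. The NF-kB medians are 1.05 and 1.06 in the eNampt comparisons, while those of the interferon-stimulated genes stay between -0.053 and 0.21 in all 4.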

How the data were processed

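The authors deposited 1 table of log2 expression values for 16 arrays, computed by RMA, per the submitters' processing notes. Which RMA version, probe set level and build they used is not given in the sources here. The table holds 36685 probe sets, of which 14824 carry a single gene symbol in the platform annotation, 829 several and 21032 none. Entrez identifiers linked 14670 probe sets to current rat symbols. For 234 genes with several probe sets the brightest on average represented the gene, giving 14557 genes. Dim probe sets were kept. No pair of arrays was identical (r from 0.784 to 0.946).

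Groups came from the sample titles. A group-means model over all 16 arrays was fitted in limma 3.58.1 (R 4.3.3) with moderated variances (eBayes, no trend, not robust) and two-sided tests of each ligand against control and of eNampt against the mean of the CRH and IL-6 means. Benjamini-Hochberg adjustment ran over all genes, with 0.05 as the threshold for a call. Residual degrees of freedom were 12 and prior ones 2.28. The median SE was 0.281 for a ligand against control and 0.243 for eNampt against the other ligands. The number of arrays limits the precision. The fit was tested on simulated data.

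Values on every array are given for 20 members: the 3 each way with the largest moderated t in eNampt against control, the 2 each way in the other comparisons, and Isg15, Ifit3, Mx1, Irf7, Stat2 and B2m. Other lists are named by their called genes or their 2 largest moderated t. The members and lists were chosen with earlier results of these data known. Promoter motifs were searched in RefSeq windows of build GRCr8, whose coordinates were not joined to the arrays. Alternatives covered normalization, centring, dim genes, probe set choice, variance model, array weights, the replicate number as a block, and leaving out arrays.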

Additional observations from a re-analysis of the deposited data

Results flagged for a closer look

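Of 80 groups of 4 arrays examined over the 20 members given in full, 8 held an array far from the other 3 by Dixon's criterion, where chance alone gives about 1 in 20. Cmpk2 read 5.34 on control array 2, against 1.93 to 2.24 on the other control arrays. Oasl read 2.19 on control array 4, against 1.66 to 1.70. On CRH array 4, Mx1 read 2.09 (others at most 1.58) and Zbp1 read 2.23 (others 1.61 to 1.64). On IL-6 array 2, B2m was low at 5.02 (others 6.63 to 6.77) and Ifit3 high at 2.11 (others 1.24 to 1.33). Gbp5 read 2.33 on IL-6 array 4 (others 1.59 to 1.70). Mx1 read 1.61 on eNampt array 2 (others 1.43 to 1.45), a gap that is small in absolute size because the other 3 arrays lay so close together.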

How the results depend on the processing

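With control arrays 3 and 4 left out, the eNampt differences from control of B2m, Cmpk2, Irf7, Stat2 and Tap1 turned to -0.47, -0.39, -0.063, -0.047 and -0.24, the median member difference for IL-6 became 0.011, members higher at an unadjusted p under 0.05 numbered 1 for CRH and 3 for IL-6 (with 3, 2 and 1 lower for CRH, IL-6 and eNampt), and NF-kB targets so counted for eNampt numbered 10. Repeating quantile normalization turned Mx1 to 0.017 and Tap1 to -0.039 and gave 3 members for IL-6, and centring turned Mx1 to 0.014. With genes above the median level only (22 members, a brighter set), the medians were 0.52 for eNampt and 0.38 for IL-6. Array weights gave 5 members for eNampt, and fitting only the arrays compared gave 1 for CRH. Leaving out 1 array at a time gave Cmpk2 -1.11 to 0.025 for CRH and 0.16 to 1.30 for eNampt, Irf7 -0.14 to 0.33, Isg15 -0.46 to 0.32 and Tap1 -0.23 to 0.38 for eNampt, an IL-6 median of 0.078 (without control array 4) to 0.27, and 0 to 1 members called for eNampt (1 without control array 2). The counts at an unadjusted p under 0.05 ran from 1 (without control array 3 or CRH array 4) to 6 (without CRH array 3) for CRH, 2 (without IL-6 array 3 or 4) to 8 (without control array 1) for IL-6, 1 (without eNampt array 1) to 5 (without control array 1 or eNampt array 3) for eNampt, and 0 (without eNampt array 1) to 2 for eNampt against CRH and IL-6. Where no cause is named, the cause was not tested. Of 863 alternative values over 47 results, 47 changed a sign, a call, a count or a median in this way. Changes in size alone of single members are not among these 47. Cmpk2 was the 1 member called in any.

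Replicate numbers of the labels were not taken to pair the arrays, since the correlations of same-numbered arrays were not all above 0.1: deviations from group means correlated at -0.184 to 0.305 (median 0.031) between same-numbered arrays of different groups and at -0.245 to 0.278 (median -0.00972) between others, and 8 of 16 arrays correlated best with an array of their own number, with 24 same-numbered pairs beside 72 others. That rule cannot show pairing of some arrays only. Array 3 of control, CRH and eNampt correlated at 0.234 to 0.305 with each other, and IL-6 array 3 with these at -0.0232 to 0.00555. With the replicate number as a block, members higher at an unadjusted p under 0.05 numbered 5 for CRH, 6 for IL-6, 3 for eNampt and 2 for eNampt against CRH and IL-6, and 0 members were called in each. Signal near the array floor limits what can be seen of the 15 members below the median gene level. Probe sets of the Ifitm and Oas families may share RNA. The arrays' independence is not stated, and Irf1 and Ifit1 were not analysed.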
